A study of Arabidopsis thaliana with 6 samples.

Results

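Calmodulins, calmodulin-like proteins, EF-hand calcium-binding proteins and the proteins that bind calmodulin were examined in ABA-treated Arabidopsis thaliana seeds. The set holds 136 of the 22746 non-control probe sets of the ATH1 array. They were taken by the wording of their titles in the authors' deposited table, namely titles with "calmodulin" or "calcium-binding EF hand" other than caleosins, and no expression value was used to choose them. By the same titles the set is broader than EF-hand proteins alone: 69 probe sets are titled calmodulin-binding, 33 carry an EF hand family title without the word calmodulin, 32 as calmodulin or calmodulin-like, and 2 as calmodulin-domain protein kinases. A single locus could be assigned to 86 of the 136, and the others are called here by the name in their title or by their probe set ID.

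Calmodulin is a small protein that senses calcium in the cytosol and nucleus. Its EF hands, helix-loop-helix motifs, take up calcium when the ion rises, and the loaded protein then binds and regulates kinases, pumps, channels, transcription factors and scaffold proteins. Calmodulin-like proteins share the EF hands but differ in sequence and often respond to touch, wounding or low oxygen, and plants also have kinases with an EF-hand domain of their own. Calcium is also among the messengers of abscisic acid (ABA), a hormone that delays germination.

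anac089-2 mutant seeds in the Columbia-0 (Col-0) background were compared with wild-type Col-0 seeds, with 3 biological replicates in each group and 1 array per replicate. ANAC089 encodes a membrane-anchored transcription factor of the NAC family. Seeds of both groups had imbibed in water at 4 °C in darkness for 3 days and had then spent 3 h in light at 22 °C with 5 µM ABA. No group was kept without ABA, so the comparison asks how the mutant differs in the presence of the hormone, not how either genotype responds to it. The labels do not describe the lesion in anac089-2, and no level of ANAC089 itself was analysed here. RNA came from whole seeds, so fewer cells of a type and less RNA per cell cannot be told apart.

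The tissue label was checked against markers. All 17 probe sets for seed storage, oil body and Em proteins were bright, with log2 levels from 8.28 to 14.06, while the leaf genes LHCB5 and PORC lay below the array median on all 6 arrays. Seed storage and Em markers differed between the groups themselves, since 5 of the 17 fell in anac089-2 and 0 rose. The mean of the 17 was 11.70 to 11.76 on the anac089-2 arrays and 11.94 to 12.11 on the wild-type arrays, and the part of this difference in the results below was not tested. Seed coat markers (3 probe sets) and endosperm markers (3 probe sets) did not exceed 4.52, and none of them passed the test. Other listed markers, such as TT2, GL2 and PHE1, were not matched to a probe set. These few genes do not measure how much seed coat or endosperm was present. The embryo epidermis marker PDF1 ran from 5.90 to 7.16 and did not pass (log2 difference -0.65, limma adjusted p = 0.198). Array medians ran from 4.00 to 4.01 in anac089-2 and from 3.80 to 3.98 in wild type. The lowest, 3.80, was that of wild-type replicate 3, which also correlated least with its group (mean r = 0.982).

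Of the 136 probe sets, 3 rose and 2 fell in anac089-2 at a limma adjusted p under 0.05, and 131 did not pass. That is 3.68% of the set, against 4.92% of all probe sets (2.94% higher and 1.98% lower), so the calls were no more frequent here than over the array. A second quantile normalization gave 4 higher and 5 lower (7.48% of all probe sets called), and centring each array on its median gave 4 of each (6.50% of all). The groups did not overlap for 28 of the 136 (20.6%), against 24.0% of all probe sets. Of these 28, 19 were higher in the mutant (14.0% of the set, against 15.8% of all) and 9 were lower (6.62%, against 8.23%). At an unadjusted limma p under 0.05 there were 26 (19.1%, against 19.3%). The median log2 difference was 0.05 over the set and 0.04 over the array. The probe sets that passed were those of IQD27, IQD23, AT3G52870 and AT2G34020 and the probe set 247480_at.

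**Figure D1:**
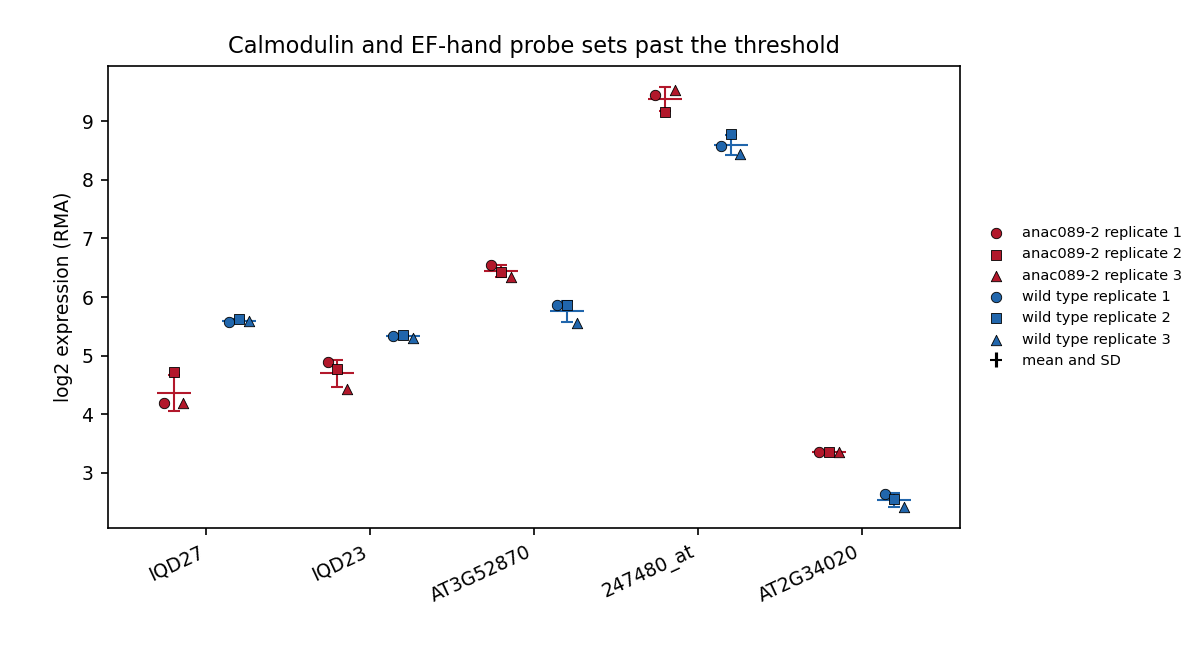
Log2 expression (RMA, vertical axis) of the 5 probe sets of the examined set with a limma adjusted p under 0.05, anac089-2 left and wild type right for each, with a symbol per replicate, the mean and the SD (n = 3). AT2G34020 has an EF hand family title, and the others are titled calmodulin-binding. IQD27 and IQD23 lie lower in all 3 mutant arrays than in all 3 wild-type arrays, and the other 3 probe sets lie higher.

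The largest change was a fall of IQD27 (AT1G51960), a member of the IQ67-domain family of plant calmodulin-binding scaffold proteins, which are known for their association with microtubules. IQD27 had log2 levels of 4.19, 4.72 and 4.19 in anac089-2 seeds and 5.58, 5.62 and 5.60 in wild-type seeds. The wild-type arrays were nearly equal and all lay above the mutant arrays. IQD27 thus fell 2.35-fold (log2 difference -1.23 ± 0.157, SE, n = 3 per group, limma adjusted p = 0.0120). IQD23 (AT5G62070), of the same family, had 4.89, 4.78 and 4.44 in anac089-2 and 5.33, 5.35 and 5.31 in wild type. It fell 1.54-fold (-0.63 ± 0.132, SE, limma adjusted p = 0.0432), again with no overlap. The levels of both lay close to the array medians in the mutant, and their signal relative to background was not analysed here.

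AT3G52870, titled a calmodulin-binding family protein, had 6.54, 6.43 and 6.34 in anac089-2 and 5.87, 5.86 and 5.55 in wild type, a rise of 1.60-fold (0.68 ± 0.123, SE, limma adjusted p = 0.0283). The probe set 247480_at carries the same title and has no gene in the sources used here. Its levels were 9.45, 9.15 and 9.54 in anac089-2 and 8.58, 8.78 and 8.44 in wild type, a rise of 1.72-fold (0.78 ± 0.142, SE, limma adjusted p = 0.0284). It was the brightest of the 5 in both groups. AT2G34020, an EF hand family protein, was listed at 3.35 on each of the 3 mutant arrays and at 2.65, 2.55 and 2.42 in wild type (0.81 ± 0.0985, SE, limma adjusted p = 0.0119). All 6 of these values lay below the array median, a range in which 6 of 10113 probe sets passed the test (0.0593%), so the 1.75-fold rise is one of dim values.

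How far these calls rested on single arrays differed between genes. All 5 kept their direction whichever array was left out. AT2G34020, with 3 equal and dim mutant values (SD 0.00), stayed past the threshold in 4 of 6 such fits. It lost the call without anac089-2 replicate 1 (adjusted p = 0.0735) or replicate 3 (0.0824). IQD27 stayed in 3 of 6, and lost it without the same mutant arrays (0.0735 and 0.0824) or wild-type replicate 2 (0.0513). The probe set 247480_at stayed in 2 of 6, without anac089-2 replicate 2 or wild-type replicate 3, and AT3G52870 and IQD23 stayed in 1 of 6, without wild-type replicate 3. Highest adjusted p-values in these fits were 0.145 for 247480_at, 0.141 for AT3G52870 and 0.123 for IQD23, all from fits without a mutant array. Over the whole array the count of calls was 6 (0.0264%) without anac089-2 replicate 1 and 4 (0.0176%) without replicate 3, and 0 members passed in either fit, so the losses there were not limited to these genes. Without wild-type replicate 3, 9 members passed, the highest count of these fits, against 7.33% of all probe sets.

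**Figure D2:**
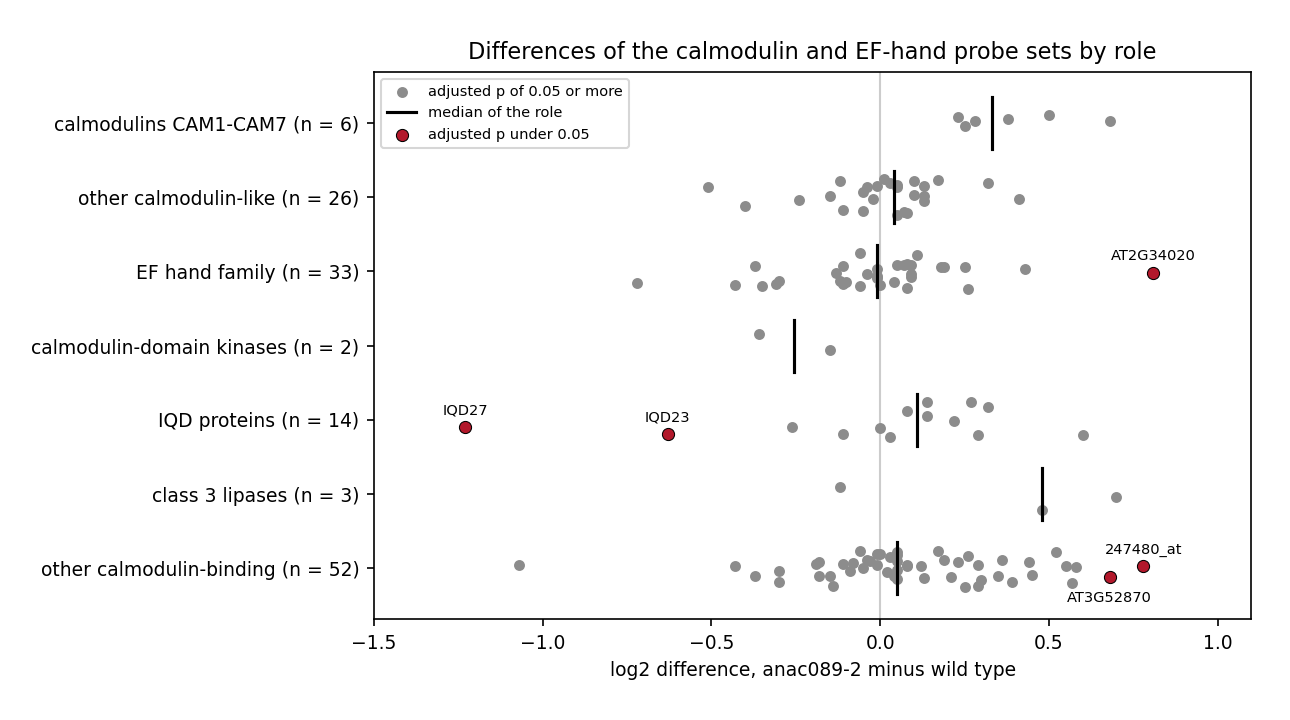
Log2 difference (anac089-2 minus wild type, horizontal axis) of each of the 136 probe sets, grouped by role, with points in red for an adjusted p under 0.05 and a bar at the median of each role. The 6 calmodulin probe sets all lie right of 0 and none passes, while the EF hand family centres on -0.01. The IQD row holds only probe sets with an IQD gene symbol.

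The calmodulins proper form the core of the set. Arabidopsis has several calmodulin genes whose proteins are nearly or fully identical, as the shared titles calmodulin-1/4 (CAM1, CAM4) and calmodulin-2/3/5 (CAM2, CAM3, CAM5) show, and CAM7 is also known as a DNA-binding regulator of light-driven seedling development. Each of the 6 probe sets of CAM1, CAM2, CAM3, CAM4, CAM5 and CAM7 had a higher mean in anac089-2, and none passed the test. Transcripts of such close copies may share probes, so signal could be split between them and the separate values are uncertain.

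CAM7 had log2 levels of 8.00, 7.53 and 7.58 in anac089-2 and 7.14, 7.24 and 6.70 in wild type. The groups did not overlap, and the difference of 0.68 (95% interval 0.24 to 1.11) had a limma adjusted p of 0.0928. CAM3 had 8.16, 8.09 and 7.79 in anac089-2 against 7.44, 7.49 and 7.60 in wild type, a difference of 0.50 (95% interval 0.21 to 0.80, limma adjusted p = 0.0683). CAM3 also showed no overlap, and at the threshold of 0.05 array weights took it past the test (0.0400). CAM1 had 9.64, 9.21 and 9.27 in anac089-2 against 9.04, 8.87 and 9.07 in wild type, without overlap and with a difference of 0.38 (95% interval 0.05 to 0.71). These intervals are not adjusted for the number of probe sets.

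For the other calmodulins the groups overlapped. CAM5, also called the touch gene TCH1, had 8.18, 7.88 and 7.93 in anac089-2 and 7.77, 7.88 and 7.50 in wild type, with a 95% interval of the difference from -0.04 to 0.60. CAM4 had 10.39, 10.22 and 10.02 in anac089-2 and 9.77, 10.04 and 10.07 in wild type, with an interval from -0.07 to 0.57. CAM2 had 6.33, 5.83 and 5.98 in anac089-2 and 5.96, 5.73 and 5.75 in wild type, with an interval from -0.12 to 0.58. The intervals of these 3 include both 0 and a rise as large as that measured for CAM3.

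anac089-2 replicate 1 was the highest of the 6 arrays for every one of these calmodulins. The mean of the 6 probe sets was 8.45 on that array, 8.13 and 8.10 on the other mutant arrays, and 7.85, 7.88 and 7.78 on the wild-type arrays. Without anac089-2 replicate 1 the differences were 0.53 for CAM7, 0.43 for CAM3, 0.25 for CAM1, 0.19 for CAM5, 0.16 for CAM4 and 0.09 for CAM2. The median difference of the 6 was 0.33 with all arrays. Positive differences were common at these levels: of the 6436 probe sets whose mean lay between those of CAM2 and CAM4, 61.5% were positive, with a median of 0.11. Of the same 6436, 1760 were higher in anac089-2 without overlap, as were 3 of the 6 calmodulins. The 6 differences stayed positive under each alternative tried, and CAM2 came down to 0.04 after a second quantile normalization.

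**Figure D3:**
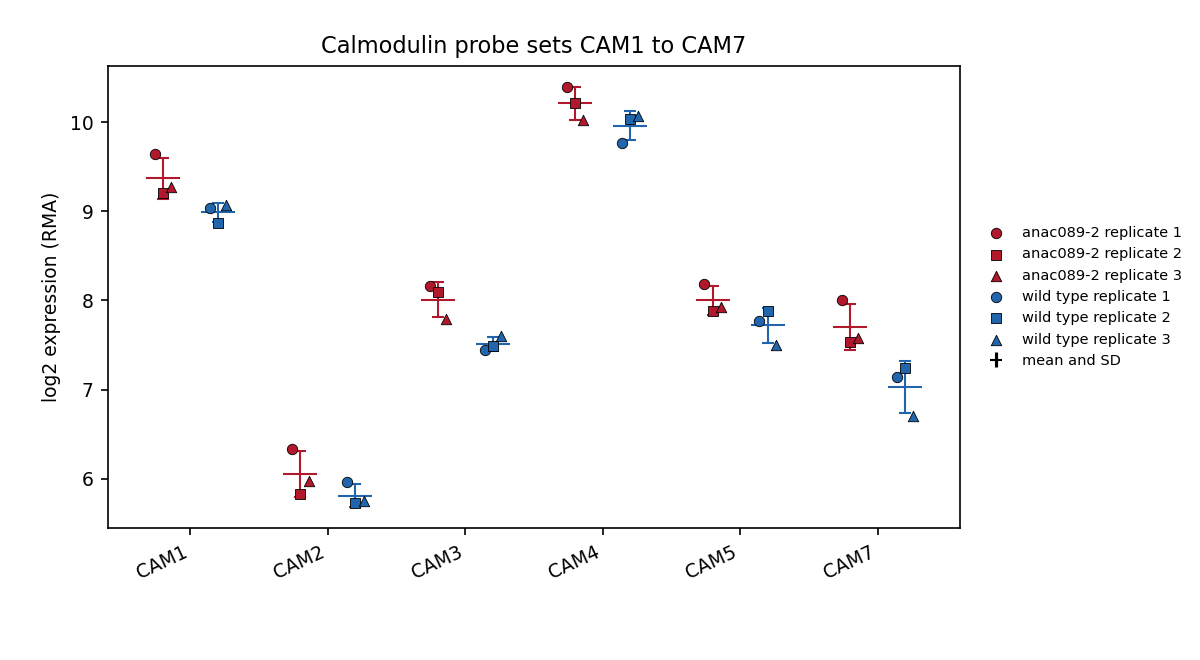
Log2 expression (RMA, vertical axis) of the 6 calmodulin probe sets, anac089-2 left and wild type right for each, with a symbol per replicate, the mean and the SD (n = 3). Groups are separate for CAM1, CAM3 and CAM7 and overlap for CAM2, CAM4 and CAM5, and the red circles, anac089-2 replicate 1, are the highest points for each gene.

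Calmodulin-like genes were mostly dim in these seeds. Of 26 probe sets with such titles outside the 6 calmodulins, 0 passed the test, against 4.92% of all probe sets. Their differences were 15 positive and 11 negative, with a median of 0.04. The positive share was 57.7%, against 57.0% of all probe sets. For 19 of the 26 every array lay below its median. Among them were the touch-inducible genes TCH2, with 3.46, 3.35 and 3.55 in anac089-2 against 3.42, 3.41 and 3.02 in wild type, and TCH3, with 3.70, 3.64 and 3.53 against 3.49, 3.44 and 3.79. CML23, CML37, CML41 and AT1G76640 were also below the median throughout, and none of their differences exceeded 0.12 in size. The synonym CML39 is given by RefSeq to both AT1G76640 and CML37, so it is not used here. CML30 ranged from 3.54 to 3.80 in anac089-2 and from 3.10 to 4.16 in wild type.

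Brighter members of this group did not pass either, and their differences ran both ways. AT1G12310, titled a putative calmodulin, had 9.52, 9.35 and 9.26 in anac089-2 and 9.39, 9.25 and 9.19 in wild type (0.10 ± 0.111, SE). CAM9, titled calmodulin-9, had 7.73, 7.31 and 7.12 in anac089-2 and 7.31, 7.05 and 6.83 in wild type (0.32 ± 0.189, SE). AT2G41410 pointed the other way, with 9.37, 9.58 and 9.62 in anac089-2 and 9.96, 9.76 and 10.04 in wild type (-0.40 ± 0.120, SE), without overlap but also without passing. AT3G25600 had the most negative difference of the calmodulin-like group, -0.51. Its mutant levels were 5.94, 6.16 and 6.54, and its wild-type levels 7.15, 6.90 and 6.12, the last from wild-type replicate 3. Without that array its difference was -0.81 and passed (limma adjusted p = 0.0462), whereas it was -0.30 without wild-type replicate 1 (0.575) and -0.37 without anac089-2 replicate 1 (0.697).

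The EF hand family titles, 33 probe sets, gave 1 rise (AT2G34020, above) and 0 falls, against 2.94% and 1.98% of all probe sets. Their differences were 15 positive and 18 negative, with a median of -0.01. Positive differences made up 45.5%, against 57.0% of all probe sets. The groups did not overlap for 2 higher and 5 lower of the 33, against 15.8% and 8.23% of all probe sets. The largest negative difference was that of AT4G27280, with 8.63, 8.63 and 8.86 in anac089-2 and 9.66, 9.03 and 9.58 in wild type (-0.72 ± 0.179, SE, limma adjusted p = 0.0700). At the threshold of 0.05 it passed in 5 of the other fits, among them that without the dimmest 40% of probe sets (0.0462). AT5G04170 had 8.22, 8.37 and 8.48 in anac089-2 and 8.89, 8.77 and 8.71 in wild type (-0.43 ± 0.109, SE, limma adjusted p = 0.0712), and median centring took it past the threshold (0.0309).

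CML38 (AT1G76650), a calmodulin-like protein induced by low oxygen, carries the EF hand title. It had 9.44, 9.37 and 9.36 in anac089-2 and 9.92, 9.58 and 9.71 in wild type, lower on every mutant array, with a difference of -0.35 (95% interval -0.61 to -0.08, limma adjusted p = 0.149). Its neighbour in the annotation, AT1G76640, was listed at 2.71 to 2.75 in anac089-2 and 2.63 to 2.87 in wild type. Some EF hand titles name a second function. The sodium/calcium exchanger family gene AT1G53210 (synonym NCL) had 10.37, 10.29 and 10.34 in anac089-2 and 10.50, 10.41 and 10.21 in wild type (-0.04 ± 0.108, SE). AT5G44090, a putative regulatory subunit of protein phosphatase 2A, had 7.24, 7.19 and 7.31 in anac089-2 and 7.82, 7.49 and 7.55 in wild type (-0.37 ± 0.117, SE), without overlap. The brightest member of the whole set, AT2G44310, had 11.03, 10.97 and 11.09 in anac089-2 and 11.21, 10.97 and 10.95 in wild type. The difference of its means was -0.01.

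The pair of kinases with a calmodulin-like domain, which calcium activates directly, did not pass. CPK9 had 5.97, 5.84 and 5.58 in anac089-2 and 5.90, 6.10 and 6.48 in wild type (-0.36 ± 0.175, SE). CPK7 had 3.50, 3.31 and 3.45 in anac089-2 and 3.49, 3.51 and 3.72 in wild type (-0.15 ± 0.110, SE).

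Among the 69 probe sets titled calmodulin-binding, the targets of calmodulin, 2 rose and 2 fell, against 2.94% and 1.98% of all probe sets. Positive differences numbered 43 (62.3%, against 57.0% of all probe sets) and negative ones 26. The groups did not overlap for 14 higher and 2 lower of the 69, against 15.8% and 8.23% of all probe sets, the lower ones being IQD27 and IQD23. An IQD gene symbol was found for 14 probe sets, with a median difference of 0.11 and a span from -1.23 (IQD27) to 0.60 (IQD30). Probe sets known only by their ID had no symbol to assign them by, so the family may hold more of the 69. IQD30 had 5.31, 5.13 and 5.03 in anac089-2 and 4.30, 4.98 and 4.38 in wild type, without overlap (limma adjusted p = 0.135). IQD28, IQD31 and IQD32 were likewise higher on every mutant array, by 0.32, 0.22 and 0.29, and none passed. IQD32 was even within each group, with 5.72, 5.74 and 5.72 in anac089-2 and 5.37, 5.43 and 5.50 in wild type. The other 8 probe sets with an IQD symbol overlapped between the groups, with differences from -0.26 (IQD19) to 0.27 (IQD26).

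Class 3 lipases titled as calmodulin-binding heat-shock proteins gave 3 probe sets. AT4G00500 had 5.37, 5.43 and 5.40 in anac089-2 and 4.75, 5.01 and 4.33 in wild type (0.70 ± 0.170, SE, limma adjusted p = 0.0641). AT3G49050 had 4.12, 3.82 and 3.94 in anac089-2 and 3.38, 3.67 and 3.39 in wild type (0.48 ± 0.128, SE, limma adjusted p = 0.0846). Neither overlapped between the groups, and AT4G00500 passed in 5 of the other fits at the threshold of 0.05, without wild-type replicate 3 among them (0.0349). The third, AT5G37710, overlapped, with 6.38, 6.25 and 6.17 in anac089-2 and 6.43, 6.50 and 6.24 in wild type.

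Transcription factor and motor genes that calmodulin binds were also measured. SR1, a calmodulin-binding transcription factor known for restraining salicylic acid defence, had 6.67, 6.80 and 6.75 in anac089-2 and 6.75, 6.88 and 6.45 in wild type (0.05 ± 0.130, SE). ZWICHEL, a kinesin needed for trichome branching, had 4.04, 4.20 and 3.96 in anac089-2 and 4.06, 4.00 and 3.75 in wild type (0.13 ± 0.122, SE). The remaining positive differences of the largest size without a call were those of the probe sets 264449_at (0.58) and 257573_at (0.57), and both overlapped between the groups. The difference of 264449_at was 0.29 without wild-type replicate 1 and 0.88 without replicate 2, and that of 257573_at was 0.34 without wild-type replicate 3.

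AT5G10660, titled calmodulin-binding protein-related, had the second most negative difference of the set, -1.07, and it came from 1 array. Its levels were 2.97, 2.85 and 2.80 in anac089-2 and 2.87, 3.04 and 5.93 in wild type, the last from wild-type replicate 3. Without that array the difference was -0.08. Wild-type replicate 3 lay more than 1 log2 unit from both other wild-type arrays for 2 of the 136 probe sets, against 525 of all 22746. The 2 were AT5G10660 and 258700_at (2.89, 3.16 and 4.67 in wild type, 3.29, 3.12 and 3.20 in anac089-2). By smaller amounts this array often stood apart. For 55.1% of the 136 it lay farther from both others than they lay from each other, against 52.8% of all probe sets. The probe set 250233_at, at -0.43 with all arrays, had 5.51, 5.42 and 5.33 in anac089-2 and 5.44, 5.86 and 6.24 in wild type. Its difference was -0.23 without wild-type replicate 3 and -0.63 without wild-type replicate 1. Within-group SDs had a median of 0.105 in anac089-2 and 0.180 in wild type over the 136, and 0.108 and 0.180 over all probe sets.

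**Figure D4:**
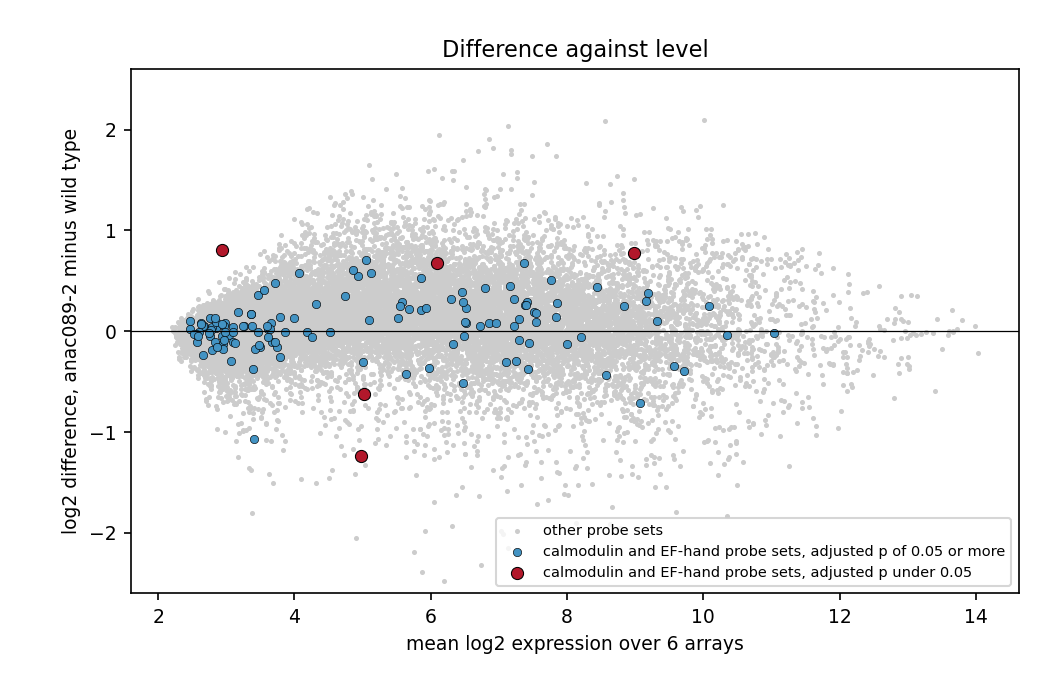
Log2 difference (anac089-2 minus wild type, vertical axis) against mean log2 expression over the 6 arrays (horizontal axis), with the 136 calmodulin and EF-hand probe sets over all others in grey; 5 probe sets outside the plotted differences are not drawn. Most of the set lies within the grey cloud, and of the 5 red points with an adjusted p under 0.05 1 lies at a mean level near 3.

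What these arrays could resolve varied with level. On all 6 arrays, 53 of the 136 probe sets (39.0%) lay below the array median, against 44.5% of all probe sets. Of the 83 others, 4 passed (4.82%), against 8.82% of the 12633 such probe sets on the array. The unadjusted 95% interval of the difference lay wholly within 0.5 of 0 for 69 of the 136 and within 1 for 121. Among the 83, it did so for 27 and 69.

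Other genes of calcium signalling, listed by title words and outside the 136, gave 4 higher and 5 lower of 208 probe sets, with a median difference of 0.01. Over the array 2.94% of probe sets rose and 1.98% fell, which is the share to set beside these counts and those of the lists within the 208. In the list of calcium-dependent and CBL-interacting protein kinases and calcineurin B-like (CBL) calcium sensors, 0 of 74 rose and 2 fell. CBL1, an EF-hand sensor at the plasma membrane that recruits such kinases, had 8.34, 8.85 and 8.78 in anac089-2 and 10.21, 9.89 and 10.11 in wild type. It fell 2.66-fold (-1.41 ± 0.162, SE, n = 3 per group, limma adjusted p = 0.0117). CIPK10, a kinase of the CBL-interacting family, had 5.24, 5.28 and 5.03 in anac089-2 and 5.98, 5.85 and 6.01 in wild type (-0.76 ± 0.109, SE, limma adjusted p = 0.0153). None of the 39 probe sets titled calcium-dependent protein kinase passed.

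Among 25 probe sets of calcium pumps and cation exchangers, 1 rose and 1 fell, and both encode calcium pumps. ACA13, titled a plasma membrane-type calcium ATPase, had 5.31, 5.76 and 5.62 in anac089-2 and 7.20, 7.31 and 7.05 in wild type, and fell 3.08-fold (-1.62 ± 0.142, SE, limma adjusted p = 0.00731). ACA4, a calmodulin-activated pump known from the vacuolar membrane, had 7.73, 7.24 and 7.42 in anac089-2 and 5.94, 6.52 and 5.85 in wild type, and rose 2.57-fold (1.36 ± 0.207, SE, limma adjusted p = 0.0179). The groups were well separated for both. Of 36 channel probe sets only CNGC12, a cyclic nucleotide-gated channel known from plant immunity, passed, with 7.79, 7.81 and 7.79 in anac089-2 and 7.10, 7.36 and 6.91 in wild type (0.67 ± 0.129, SE, limma adjusted p = 0.0325).

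Of 73 probe sets for other calcium-binding proteins, 2 rose and 2 fell. AT5G07340, a calnexin, which folds glycoproteins in the endoplasmic reticulum, had 7.76, 7.41 and 7.48 in anac089-2 and 6.63, 6.94 and 6.33 in wild type (0.92 ± 0.175, SE). The C2 domain gene AT1G51570 also rose (0.93 ± 0.188, SE), whereas SRC2 (-0.86 ± 0.147, SE) and AT5G50170 (-0.71 ± 0.111, SE), both with C2 domain titles, fell. Limma adjusted p-values of these 4 were between 0.0193 and 0.0376. No annexin (8 probe sets), calreticulin (3) or caleosin (4) passed. Median differences were -0.03 for annexins and -0.01 for caleosins. The 3 calreticulin differences were all positive, from 0.25 to 0.64, and 2 of these probe sets were higher without overlap, against 15.8% of all probe sets. All 9 calls among the 208 probe sets kept their direction in each fit with 1 array left out. ACA13, CBL1 and CIPK10 stayed past the threshold in 4 of 6 such fits, losing it without anac089-2 replicate 1 (adjusted p 0.0552, 0.0601 and 0.0853) or replicate 3 (0.0751, 0.0824 and 0.0839). ACA4 stayed in 3 of 6, also lost without wild-type replicate 1 (0.0546), with a highest adjusted p of 0.0979, and the other 5 stayed in 1 or 2 of 6, with highest values between 0.0935 and 0.153.

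**Figure D5:**
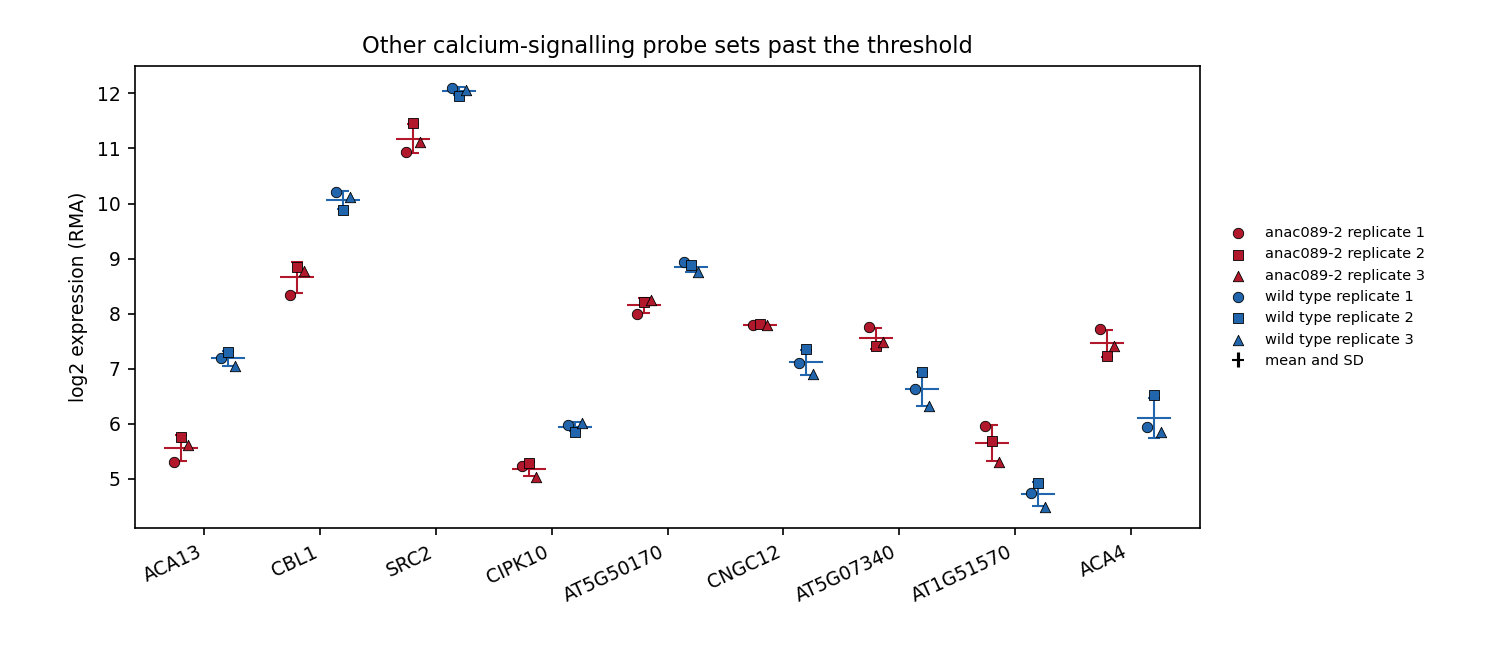
Log2 expression (RMA, vertical axis) of the 9 probe sets of the other calcium-signalling lists with a limma adjusted p under 0.05, ordered by their difference, anac089-2 left and wild type right for each, with a symbol per replicate, the mean and the SD (n = 3). ACA13, CBL1, SRC2, CIPK10 and AT5G50170 lie lower in anac089-2 and the other 4 higher, with no overlap in any of them.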

How the data were processed

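Seed RNA of 3 anac089-2 and 3 wild-type samples was hybridised to ATH1 arrays. The authors deposited log2 expression per probe set after RMA, per the submitters' processing notes, which also name limma. A second deposited table holds the authors' own comparison, with log2 fold changes and FDR p-values, per the file headers. It supplied titles and 1 alternative, with 4 FDR cells that had lost their decimal point read as 1. Its per-array columns, 6 in number, were not used.

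All 22746 non-control probe sets (64 controls set aside) were fitted together without a block (lmFit and eBayes of limma 3.58.1, R 4.3.3), adjusted by Benjamini-Hochberg and called at 0.05. A positive difference means higher in anac089-2. The fit was tested on simulated data. With 3 arrays a group, exact permutation has a smallest two-sided p of 0.1 and was not used. The number of arrays limits the precision. The p-values set each difference against the spread between these samples, moderated over all probe sets, and cover no other source of variation.

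Loci came from the platform annotation through Entrez IDs in RefSeq (TAIR10.1): 86 probe sets of the set have 1 symbol, 1 has several and 49 are not listed. Members, lists and tests were chosen with earlier results of these data known. Named were all members past the threshold, the 5 highest and 5 lowest others, the calmodulins, TCH2, TCH3 and CML genes; further members were named after their values were seen, for a known role or a value the text turns on. Alternatives were a second quantile normalization, median centring, leaving out the dimmest 40%, an intensity trend, robust or no moderation, array weights, a replicate block, the authors' statistics, thresholds of 0.01 and 0.1, narrower title rules, and each array left out. Plots were drawn with matplotlib 3.10.9.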

Additional observations from a re-analysis of the deposited data

How the results depend on the processing

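The count of 5 members called moved by over 1.5 times in several settings. The count of 1120 over all probe sets did so in several of them, but moved by less with median centring and without wild-type replicate 3. It was 9 with a second quantile normalization (1701 over all probe sets), 8 with median centring (1479) and 8 with array weights (2070). With the replicate number as a block it was 2, IQD27 and AT2G34020 (494 over all). Without moderation of the spread it was 0 (1 over all), at an adjusted p under 0.01 it was 0 (45) and under 0.1 it was 11 (2043). Titles with "calcium-binding EF hand" alone gave 1. With 1 array left out, members called ran from 0 to 9 and all probe sets called from 4 to 1667. The counts of 0 stand beside 26 members at an unadjusted limma p under 0.05 with all arrays and the default moderation (19.1%, against 19.3% of all probe sets). The cause was not tested. Deviations from the group means correlated at -0.089, -0.063 and -0.135 between arrays of the same number, and on 0 of 6 arrays was the same-numbered array the closest, so the numbers were not taken as pairs. The other settings, leaving out the dimmest 40%, trend, robust moderation, the authors' statistics, titles with "calmodulin" and leaving out IDs ending in _s_at or _x_at, kept the count between 4 and 6. The genes called were not always the same. With the trend IQD23 was lost (limma adjusted p = 0.0733) and AT4G27280 gained (0.0450). Without the dimmest 40% AT2G34020 was not tested, and AT4G00500 (0.0434) and AT4G27280 (0.0462) were gained. Of the 209 refits of called genes named in the report (5 members and 9 others), 136 kept the call and 73 lost it, and 0 changed direction. Signal relative to background was not analysed here, so a limit set by dim signal cannot be given.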
